A study of Mus musculus with 8 samples.

Results

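Neutrophil granule and alarmin transcripts were followed in spleen NK cell pools: 10 genes (S100a8, S100a9, Ngp, Camp, Ltf, Lcn2, Mmp8, Mpo, Elane and Retnlg) of 20284 genes that could be named on the array. They were chosen by name, with earlier results of these data known. All 10 were matched to the array through the RefSeq accession of a probe, by 11 probes in all, since Camp has 2. Of the 10, 9 entered the test among 13607 genes, because Elane was too dim.

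The samples were 4 pools of mouse spleen NK cells that carried the ChAT-eGFP reporter (ChAT_positive) and 4 pools that did not (ChAT_negative). The reporter marks cells expressing choline acetyltransferase, the enzyme that makes acetylcholine, and both groups are subsets of magnetically sorted NK cells, split by the reporter's green fluorescence. Each pool held cells of 2 to 4 mice, whose strain and age the labels leave out, and no treatment is named. Amplified RNA of each pool, made from 100 ng, was read on 1 one-colour Agilent array. Whether pools shared mice is unknown, and p-values therefore describe how far these pools scatter, technical scatter included.

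Neutrophils pack antimicrobial proteins and proteases into granules that form in sequence as the cell matures in the bone marrow. Primary (azurophil) granules form first and hold myeloperoxidase and elastase, and secondary (specific) granules form later and hold lactoferrin, cathelicidin and collagenase. Transcripts of a granule class are therefore abundant at the stage at which that class is made, and mature neutrophils in tissue carry less of the early ones. S100A8 and S100A9 are calcium-binding proteins of the neutrophil and monocyte cytosol that pair as calprotectin and act as alarmins when released. NK cells are not known for these transcripts.

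Values are log2 signals relative to the 75th percentile of the array, so a difference of 1 is a 2-fold difference, and they compare 1 probe between arrays and never a gene with another gene. Per array, 50.2% to 63.2% of spots stood well above background and 0 were saturated. All 13 listed NK cell markers passed the filter. Klrb1c, Klrk1 and Prf1 were well above background on all 8 arrays, although these 3 were called lower, Prf1 in 1 of 8 fits with an array left out. The 4 arrays of a group shared 1 slide and 1 scan, which the other group did not use, so for every difference slide, scan and group cannot be told apart. Spike-in signal was lowest on the arrays numbered 3, at 9 of 10 such probes among ChAT_positive arrays and 10 of 10 among ChAT_negative arrays. The arrays numbered 2 stood apart for the neutrophil genes themselves.

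The promoters of 4 of the genes are printed to show the sequence that lies before genes that varied together (Ngp, Camp and S100a8) and before one that varied differently (Mpo). Each is the 250 bases before the start site, 5′ to 3′, from RefSeq on GRCm38.p6. Capitals mark matches on either strand to TTNNGNAA, a core of the motif of the CCAAT/enhancer-binding proteins (C/EBP), which drive granulocyte genes, or to GAGGAA, a core of the motif of the myeloid factor PU.1. They lie at chr9:110419558-110419807 on the plus strand (Ngp), chr9:109849457-109849706 on the minus strand (Camp), chr3:90668821-90669070 on the plus strand (S100a8) and chr11:87793534-87793783 on the plus strand (Mpo).
Ngp: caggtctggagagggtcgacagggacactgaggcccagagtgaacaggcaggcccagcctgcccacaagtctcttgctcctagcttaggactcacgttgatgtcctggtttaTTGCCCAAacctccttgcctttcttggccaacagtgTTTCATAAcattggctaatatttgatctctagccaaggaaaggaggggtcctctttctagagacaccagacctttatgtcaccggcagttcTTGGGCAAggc
Camp: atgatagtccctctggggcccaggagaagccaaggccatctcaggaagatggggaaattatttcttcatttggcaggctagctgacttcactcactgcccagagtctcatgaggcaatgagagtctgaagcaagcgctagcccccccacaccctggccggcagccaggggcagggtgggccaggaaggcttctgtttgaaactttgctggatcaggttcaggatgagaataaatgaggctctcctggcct
S100a8: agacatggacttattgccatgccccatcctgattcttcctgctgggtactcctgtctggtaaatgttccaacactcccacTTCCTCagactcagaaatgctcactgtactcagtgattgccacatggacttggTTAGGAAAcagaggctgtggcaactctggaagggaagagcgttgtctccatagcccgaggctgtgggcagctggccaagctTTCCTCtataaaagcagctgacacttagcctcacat
Mpo: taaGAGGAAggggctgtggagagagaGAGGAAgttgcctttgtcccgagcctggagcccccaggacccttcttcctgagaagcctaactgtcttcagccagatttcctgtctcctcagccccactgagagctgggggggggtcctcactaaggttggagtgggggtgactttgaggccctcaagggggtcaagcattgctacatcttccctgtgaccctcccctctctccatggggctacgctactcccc

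The Ngp window held 3 matches to the C/EBP core, S100a8 held 1 to it and 2 to the PU.1 core, Mpo held 2 to the PU.1 core, and Camp held neither. Over the 10 genes, 7 windows held the C/EBP core and 6 the PU.1 core, and 4 held both. Of all 32851 promoters in the table cut to the same 250 bases, 36.8% held the C/EBP core, 23.3% the PU.1 core and 8.87% both. A match is a stretch of letters and not a measured binding site. By the RefSeq annotation S100a8 and S100a9 lie next to each other on chromosome 3, and Ngp, Camp, Ltf and Mmp8 all lie on chromosome 9.

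Mean signal of all 9 tested genes was lower in the ChAT_positive pools, and 2 passed the test, Mpo and Retnlg. Mpo, the peroxidase of primary granules, fell 4.74-fold, and Retnlg, a resistin-like protein of neutrophils, fell at least 3.63-fold. In pooled cells, fewer cells of a type and less RNA per cell cannot be told apart. The other 7 were 1.93-fold to 10.4-fold lower on average and did not pass after adjustment over all genes. This fit took the pools as unpaired. A fit with the replicate number as a block, given in the last section, called all 9 lower, but the labels do not say that a number marks shared animals. These 7 genes varied together from pool to pool within each group, with the same pools low for each. Of all 13607 genes, 3.15% were called lower and 2.81% higher by limma (adjusted p under 0.05, Benjamini-Hochberg over all genes), and the 9 genes gave 2 lower and 0 higher, while at an unadjusted p under 0.05 there were 6 lower and 0 higher. These are 428 lower and 382 higher genes, against 119 and 212 when arrays were scaled on their median. In 8 of the 9 the log2 fold change was -1 or less, a size that 3.46% of all genes reached whatever their p. The median log2 fold change was -2.10 over the 9 genes and 0.025 over all genes tested. Retnlg passed the brightness filter through the ChAT_negative pools alone and so had to differ; without it the median is -2.14 over 8 genes, 1 of them called. Groups did not overlap, with ChAT_positive lower, for 2 of the 9 genes and for 6.15% of all genes. Because the genes were chosen with earlier results of these data known, these comparisons with all genes are descriptions only.

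**Figure D1:**
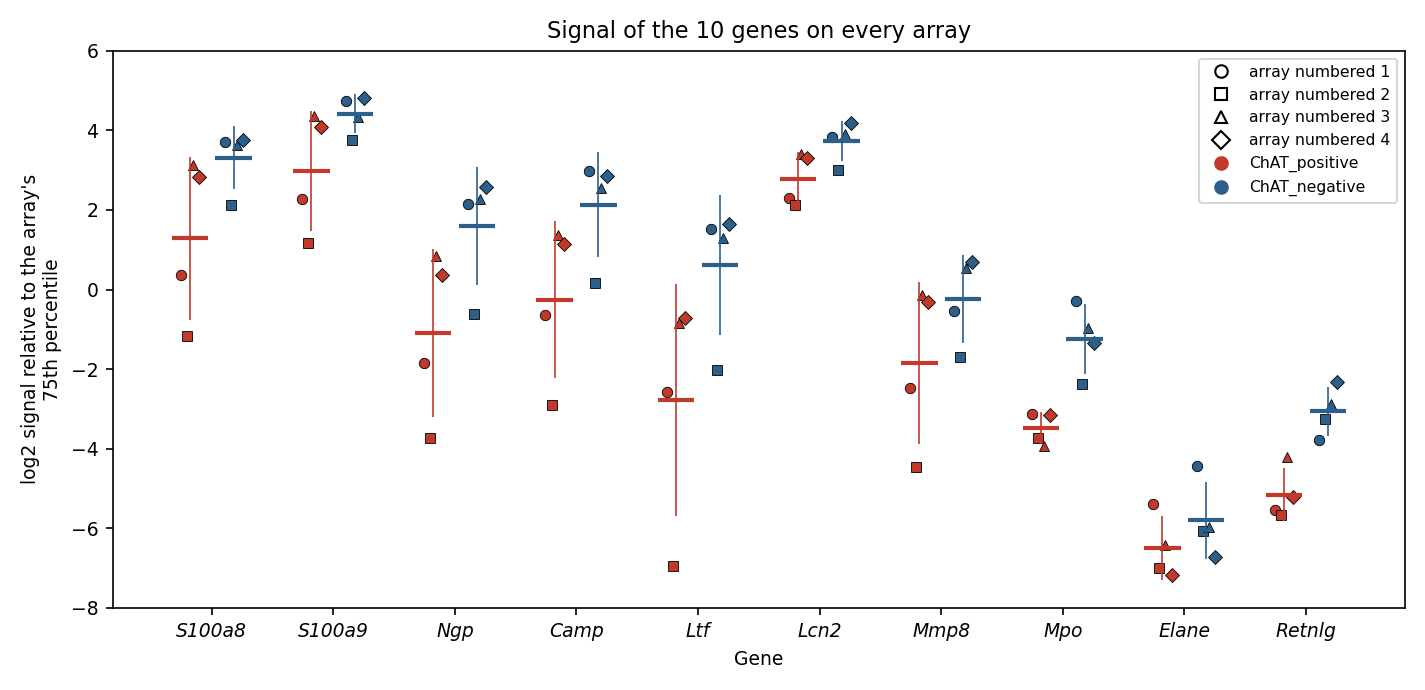
Log2 signal of each gene relative to the array's 75th percentile (vertical axis) for the 4 ChAT_positive arrays (red) and the 4 ChAT_negative arrays (blue). Marker shapes give the array number, horizontal bars the group mean and vertical lines 1 SD. Mpo and Retnlg have groups that do not overlap, and array 2 is the lowest of both groups for S100a8, S100a9, Ngp, Camp, Ltf, Lcn2 and Mmp8.

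Of the primary granule genes, Mpo read -3.13, -3.73, -3.93 and -3.16 on ChAT_positive arrays 1 to 4, and -0.30, -2.38, -0.96 and -1.34 on ChAT_negative arrays 1 to 4. Every ChAT_positive array was below every ChAT_negative array, with ChAT_negative 2 nearest to them. Its means were -3.49 ± 0.40 and -1.24 ± 0.87 (SD, n = 4 each), and it fell by 2.25 on the log2 scale (SE 0.40, limma adjusted p = 0.0201), which is 4.74-fold (95% interval 2.52 to 8.93), and the probe was well above background on all 8 arrays. Mpo was no longer called without ChAT_positive replicate 3 (limma adjusted p = 0.0665), ChAT_negative replicate 3 (0.0513) or ChAT_negative replicate 4 (0.0589). Elane, the serine protease neutrophil elastase, was well above background on 1 of 8 arrays, ChAT_negative 1, where it read -4.44. It read -5.40, -6.99, -6.42 and -7.16 on the ChAT_positive arrays and -6.07, -5.98 and -6.71 on the other ChAT_negative arrays, all of them not well above background and so with no order and no fold change.

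Retnlg read -5.53, -5.67, -4.21 and -5.22 on ChAT_positive arrays 1 to 4, none of them well above background, and -3.79, -3.25, -2.87 and -2.33 on ChAT_negative arrays 1 to 4, all well above background. The groups did not overlap, and ChAT_positive 3 was nearest to ChAT_negative 1. The measured means were -5.16 ± 0.66 and -3.06 ± 0.62 (SD, n = 4 each), which differ by -2.10 (SE 0.38, limma adjusted p = 0.0205). Because the ChAT_positive signals lie in the background, the fall is given as at least 3.63-fold on this scaling. This bound sets the ChAT_negative mean against the mean, per ChAT_positive array, of the higher of the probe's own signal and the dimmest signal that was well above background. It carries no sampling error, and the measured fall has a 95% interval that starts at 2.35-fold. Retnlg was not called when ChAT_positive replicate 1 or 4, or ChAT_negative replicate 3 or 4, was left out, with a limma adjusted p of at most 0.0589. It was also not called under quantile normalization (limma adjusted p = 0.0590), and with normexp background correction, which lifts dim signals, the log2 difference was -1.23, smaller than the bound. With no filter on dim probes neither Retnlg (0.0530) nor Mpo (0.0522) was called by limma. Without ChAT_negative replicate 3 or 4, then, neither Mpo nor Retnlg was called.

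Among secondary granule genes, Ngp encodes a cathelin-like neutrophilic granule protein. It read -1.85, -3.72, 0.85 and 0.35 on ChAT_positive arrays 1 to 4, and 2.14, -0.62, 2.26 and 2.57 on ChAT_negative arrays 1 to 4. ChAT_positive 3 and 4 were above ChAT_negative 2, so the groups overlapped. The log2 fold change was -2.68 (SE 1.06, limma adjusted p = 0.160), with a 95% interval from -5.08 to -0.29.

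Camp, which encodes the antimicrobial cathelicidin, had 2 probes. The brighter read -0.65, -2.90, 1.36 and 1.13 on ChAT_positive arrays 1 to 4, and 2.98, 0.17, 2.55 and 2.84 on ChAT_negative arrays 1 to 4. Again ChAT_positive 3 and 4 lay above ChAT_negative 2 and below the other ChAT_negative arrays. The log2 fold change was -2.40 (SE 0.98, limma adjusted p = 0.170). The other probe read from -3.22 to 0.83 in ChAT_positive and from -0.49 to 2.22 in ChAT_negative pools, with a difference of means of -2.29, so both probes gave nearly the same difference.

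Ltf encodes lactoferrin, the iron-binding protein of secondary granules, and had the widest spread of the 9. Its signal was -2.58, -6.94, -0.85 and -0.73 on ChAT_positive arrays 1 to 4, and 1.51, -2.02, 1.29 and 1.65 on ChAT_negative arrays 1 to 4. The ChAT_positive 2 value was not well above background, and the other 7 arrays were. Means were -2.77 ± 2.91 and 0.61 ± 1.76 (SD, n = 4 each), with a difference of -3.38 on the log2 scale (SE 1.39, limma adjusted p = 0.174) whose 95% interval runs from -6.53 to -0.23.

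Lcn2, which binds bacterial siderophores and is also made by many other cells, read 2.31, 2.13, 3.41 and 3.29 on ChAT_positive arrays 1 to 4. On ChAT_negative arrays 1 to 4 it read 3.83, 3.01, 3.92 and 4.19, so ChAT_negative 2 again fell among the ChAT_positive values. It had the smallest difference of the 9, -0.95 on the log2 scale (SE 0.35, limma adjusted p = 0.142), which is 1.93-fold (95% interval 1.11 to 3.36). Mmp8, neutrophil collagenase, read -2.48, -4.46, -0.15 and -0.31 in ChAT_positive and -0.54, -1.69, 0.54 and 0.70 in ChAT_negative pools. Here ChAT_positive 3 and 4 were above both ChAT_negative 1 and 2. Its log2 fold change was -1.61 (SE 0.95, limma adjusted p = 0.332), with an interval that spans 0, from -3.76 to 0.55.

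The alarmin genes S100a8 and S100a9 showed nearly the same order of pools as each other. S100a8 read 0.37, -1.18, 3.13 and 2.83 on ChAT_positive arrays 1 to 4, and 3.72, 2.14, 3.63 and 3.77 on ChAT_negative arrays 1 to 4. ChAT_positive 3 and 4 lay between ChAT_negative 2 and the other ChAT_negative arrays, and ChAT_positive 1 and 2 lay far below. The unscaled processed intensity of this probe ran from 776 on ChAT_positive 2 to 18677 on ChAT_positive 4, and from 9173 to 38645 in ChAT_negative pools. The log2 fold change was -2.03 (SE 0.90, limma adjusted p = 0.205). S100a9 read 2.29, 1.17, 4.37 and 4.08 in ChAT_positive and 4.75, 3.75, 4.34 and 4.82 in ChAT_negative pools. ChAT_positive 3 was above ChAT_negative 2 and 3 and ChAT_positive 4 above ChAT_negative 2, and the log2 fold change was -1.44 (SE 0.66, limma adjusted p = 0.215), with an interval from -2.93 to 0.053. Both probes were well above background on all 8 arrays, so alarmin signal was measured in every pool.

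The size of these differences rested in part on ChAT_positive 2. Without that array the log2 fold change was -1.21 for S100a8, -0.84 for S100a9, -1.80 for Ngp, -1.52 for Camp, -1.99 for Ltf and -0.74 for Mmp8. Without ChAT_negative 2 it was -3.42 for Ngp, -3.06 for Camp and -4.26 for Ltf. Without ChAT_positive 3 it was -2.64 for S100a8, -3.33 for Ngp and -4.02 for Ltf, and without ChAT_positive 4 it was -4.06 for Ltf. None of these genes was called in any of these fits, and all signs stayed negative. With normexp background correction Ltf had a difference of -2.66.

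**Figure D2:**
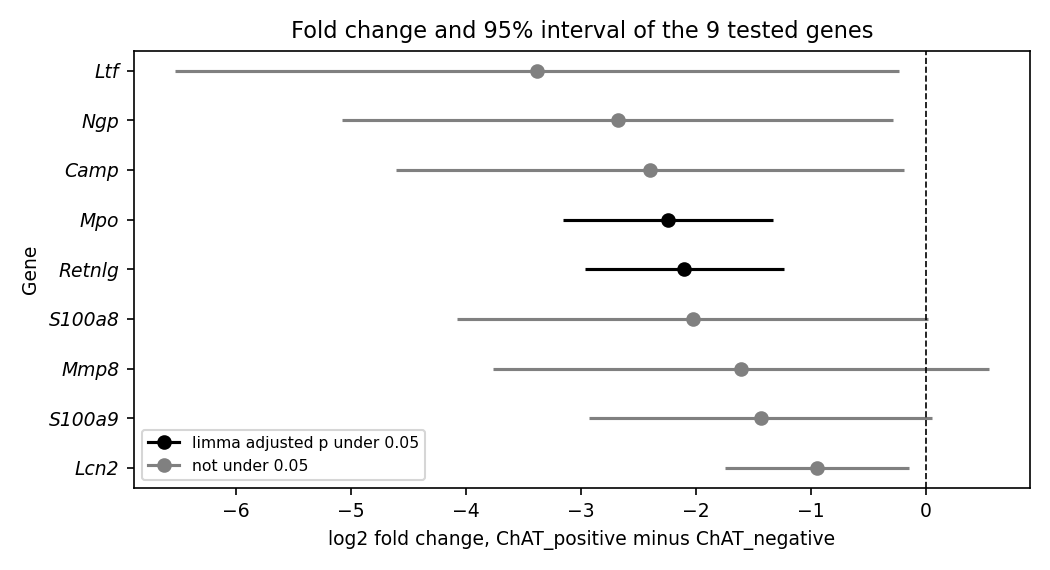
Log2 fold change (horizontal axis, ChAT_positive minus ChAT_negative) of the 9 tested genes, with 95% intervals from limma that are not adjusted for the number of genes. Black marks the 2 genes with an adjusted p under 0.05, Mpo and Retnlg, and grey the other 7, of which Ltf has the largest difference and the widest interval.

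The 10 genes fell into a set of 7 that varied together within the groups, and Mpo and Retnlg, whose correlations with it were lower (Elane was not tested). This division was made after the values were seen. Deviations of each gene from its own group mean were correlated over the 8 arrays, which removes the difference between the groups and leaves 6 free values. For the 21 pairs among S100a8, S100a9, Ngp, Camp, Ltf, Lcn2 and Mmp8, Pearson's r ran from 0.88 to 0.99 with a median of 0.94. Leaving out both arrays numbered 2, the same 21 pairs gave 0.81 to 0.99 over 6 arrays, with a median of 0.96. These 6 arrays leave fewer free values, and the 7 genes were grouped with their correlations known. Among ChAT_negative arrays 1, 3 and 4 the order differed between genes. The deviations there were 0.33, -0.076 and 0.41 for S100a9, and -0.29, 0.79 and 0.95 for Mmp8. Mpo had an r of 0.21 to 0.49 with the 7 genes, Retnlg one of 0.49 to 0.70, and the pair Mpo and Retnlg one of -0.36. The 4 ChAT_positive values of Retnlg lie in the background, so its r does not show that it varied differently. These are descriptions of 8 pools that share their array's scaling.

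The lowest and highest array of each gene can be read directly. Leaving out Retnlg, which was in the background there, ChAT_positive 2 was the lowest ChAT_positive array for 7 of 8 genes and ChAT_positive 3 the highest for 6. ChAT_negative 2 was the lowest ChAT_negative array for 8 of 9 genes and ChAT_negative 4 the highest for 7. Mpo was the exception in ChAT_positive, where array 3 was its lowest, and Retnlg in ChAT_negative, where array 1 was. The linear signals of the 9 genes, each divided by the array's 75th percentile and summed, came to 12.5, 7.42, 46.0 and 38.8 on ChAT_positive arrays 1 to 4. On ChAT_negative arrays 1 to 4 they came to 70.9, 28.5, 62.9 and 78.5. ChAT_positive 3 and 4 thus held more of this summed signal than ChAT_negative 2. The sum is carried by its brightest probes, and for Mpo and Retnlg these 2 arrays lay below ChAT_negative 2.

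**Figure D3:**
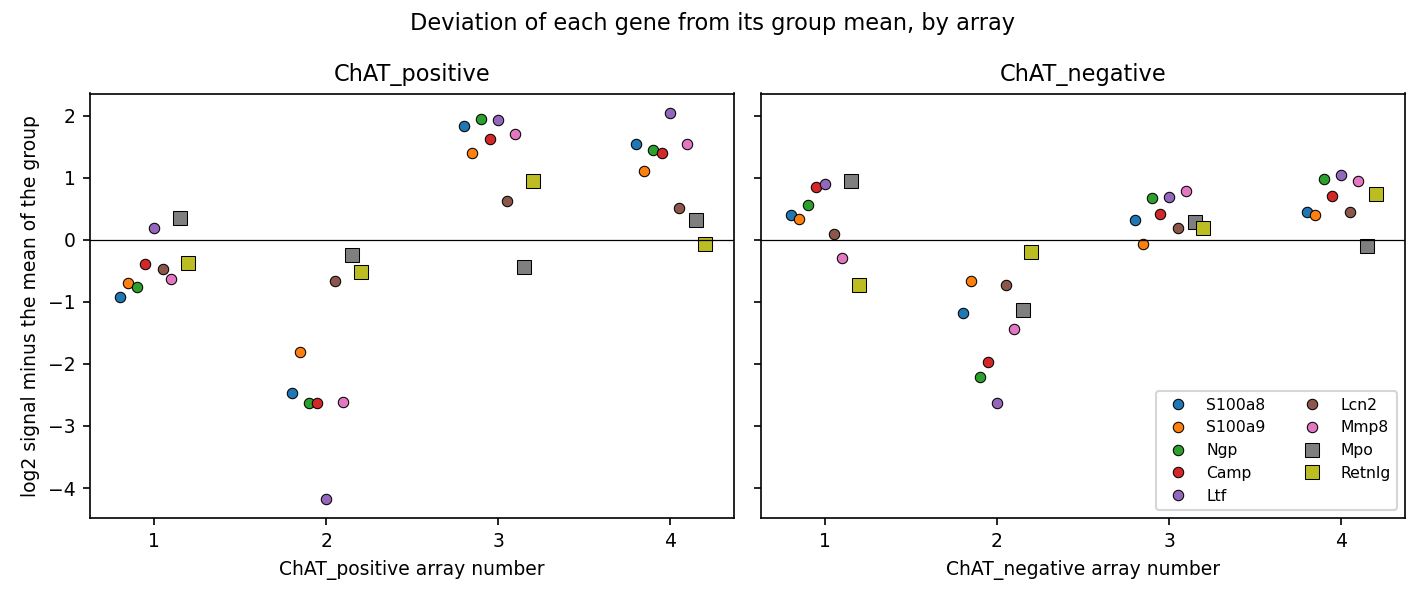
Log2 signal of each of the 9 tested genes minus the mean of its group (vertical axis) by array number (horizontal axis), ChAT_positive on the left and ChAT_negative on the right. Circles are the 7 genes that varied together and lie below 0 on array 2 of both groups; squares are Mpo, which lies below 0 on ChAT_positive 3, and Retnlg, which lies below 0 on ChAT_negative 1.

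The 8 other genes whose deviations were most like the mean standardized deviation of the 9 were Ifitm6 (r = 0.99), Chil1 (0.99), Chil3 (0.99), Opn3 (0.99), Chil4 (0.99), Scarb1 (0.98), Cd180 (0.98) and Tarsl2 (0.97), each over 8 arrays. Ifitm6 is a myeloid interferon-inducible transmembrane gene, and Chil1, Chil3 and Chil4 encode chitinase-like proteins. Chil3 and Chil4 are close paralogs whose probes may share signal. Ifitm6 differed by -2.78 on the log2 scale (SE 1.27, limma adjusted p = 0.214) and Chil3 by -2.50 (SE 0.93, limma adjusted p = 0.142), so neither was called. The 4 that are no chitinase-like or interferon-inducible genes had positive log2 fold changes, 0.43 for Opn3, 0.28 for Scarb1, 0.97 for Cd180, a receptor of B cells and macrophages, and 0.23 for Tarsl2, none of them called. An r above 0.9 was reached by 147 of 13014 genes outside the 10, and by 14 of 75 other neutrophil genes. These 14 included Stfa1 and Stfa2, which encode stefin protease inhibitors, Hp, which encodes haptoglobin, and Lyz2, a lysozyme of neutrophils and macrophages. Such an r was not particular to neutrophil genes, since 2 of 7 tested basophil and mast cell markers also reached it. The median r was 0.86 over these 7 markers, 0.56 over the 75 other neutrophil genes and -0.085 over the 13014 genes.

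Other neutrophil genes were taken from 4 lists: further primary granule genes, further secondary and tertiary granule genes, surface receptors and adhesion molecules, and other transcripts of mature neutrophils. Of 89 genes listed, 75 were tested; 11 of these fell and 3 rose, where 3.15% of all genes were called lower and 2.81% higher, and the median log2 fold change was -0.39. When arrays were scaled on their median, 2 were called lower and 3 higher. C5ar1, in the background on all ChAT_positive arrays, passed the filter through the ChAT_negative arrays alone and so had to differ; without it 10 of 74 fell. Ly6g, the antigen that defines mouse neutrophils, was not matched to a probe and is not analysed here. With 1 array left out, the 11 falls became 3 for ChAT_positive 1, ChAT_negative 3 or ChAT_negative 4, 4 for ChAT_positive 3, 5 for ChAT_positive 4, 6 for ChAT_negative 1 and 7 for ChAT_negative 2. Hdc and Lrg1 among the falls, and Cxcl3 among the rises, passed in all 8 of these fits.

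Of 10 tested primary granule genes other than the ones above, 1 fell and 0 rose (0 rose by limma, 1 was higher at an unadjusted p under 0.05). Limma called 3.15% of all genes lower and 2.81% higher. Ctsg, the granule protease cathepsin G, read 0.020, -2.25, -0.14 and -0.025 on ChAT_positive arrays 1 to 4, and 3.19, 0.53, 3.09 and 2.84 on ChAT_negative arrays 1 to 4. Its groups did not overlap, with array 2 far below the others in each. It fell by 3.01 on the log2 scale (SE 0.69, limma adjusted p = 0.0392), a call kept in 1 of 8 fits with an array left out, that without ChAT_negative replicate 2 (adjusted p up to 0.105, for ChAT_negative replicate 4). Prtn3, which encodes proteinase 3 of the same granules, had a log2 fold change of -0.40 (limma adjusted p = 0.841).

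Of 20 tested secondary and tertiary granule genes, 1 fell and 1 rose, with a median of -0.41. Over all genes, 3.15% were called lower and 2.81% higher. Lrg1, a leucine-rich glycoprotein of neutrophils, fell by 1.31 (SE 0.18, limma adjusted p = 0.00759). Cybb, the catalytic subunit of the phagocyte oxidase, rose by 1.12 (SE 0.20, limma adjusted p = 0.0200), a call kept in 5 of 8 fits with an array left out (adjusted p up to 0.0610, for ChAT_positive 3). The oxidase is also used by B cells and macrophages.

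Of 22 tested surface receptors and adhesion genes, 5 fell and 0 rose (0 rose by limma, 2 were higher at an unadjusted p under 0.05), with a median of -0.48. The shares over all genes were 3.15% called lower and 2.81% called higher. C5ar1, the receptor for complement C5a, rose above background on no ChAT_positive array and on each ChAT_negative array, and was at least 1.55-fold lower; without it 4 of 21 genes fell. Cxcr2, the chemokine receptor that draws neutrophils out of the marrow, fell by 0.96 (SE 0.20, limma adjusted p = 0.0301). Siglece, an inhibitory sialic acid receptor, fell by 0.93, Pilra, a paired inhibitory receptor, by 1.02, and Selplg, the selectin ligand carried by most leukocytes, NK cells included, by 0.69. Leaving out single arrays, Siglece and Cxcr2 kept their call in 3 of 8 fits and Pilra and Selplg in 2 of 8, with adjusted p up to 0.105, for Pilra without ChAT_negative replicate 4. Csf3r, the receptor for granulocyte colony-stimulating factor, averaged 4.69 ± 0.19 in ChAT_positive and 4.66 ± 0.22 in ChAT_negative pools (SD, n = 4 each), a difference of 0.025 (95% interval -0.31 to 0.36). It is named here after its value was seen.

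Of 23 tested other transcripts of mature neutrophils, 4 fell and 2 rose, and the median was -0.18. Beside these counts, 3.15% of all genes were called lower and 2.81% higher. Padi4, the enzyme that citrullinates histones in neutrophil extracellular traps, read -2.52, -3.48, -2.46 and -2.57 in ChAT_positive and -1.11, -2.02, -0.99 and -0.96 in ChAT_negative pools. Array 2 was the lowest of both groups, and the groups did not overlap. Padi4 fell by 1.49 (SE 0.30, limma adjusted p = 0.0280), a call kept in 2 of 8 fits with an array left out (adjusted p up to 0.0825, without ChAT_negative replicate 4). Hdc, which makes histamine and is a basophil and mast cell gene as well, fell by 2.41 (SE 0.34). G0s2, an inhibitor of lipid breakdown, fell by 0.81 and Asprv1, an aspartic protease, by 0.91, and each kept its call in 1 of 8 fits (adjusted p up to 0.0930 and 0.0989, without ChAT_negative replicate 4 and ChAT_positive replicate 3). Cxcl3, a chemokine that binds CXCR2 and is made by many cell types, rose by 2.13 (SE 0.23, limma adjusted p = 0.00296).

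**Figure D4:**
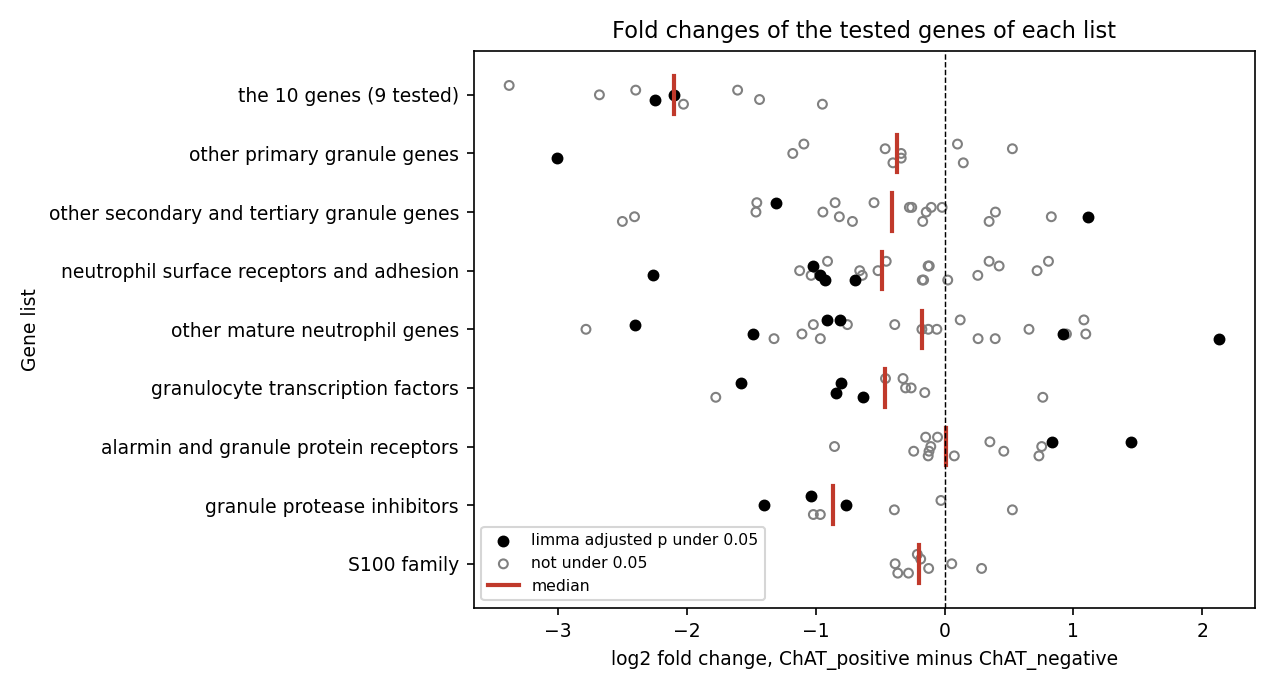
Log2 fold change (horizontal axis, ChAT_positive minus ChAT_negative) of every tested gene of each list, 1 point per gene, with the list's median as a red bar. Filled points passed limma at an adjusted p under 0.05. The 9 genes lie between -3.38 and -0.95, and the S100 family list, which leaves out S100a8 and S100a9, lies near 0 with 0 genes called.

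Transcription factors of granulocytes were also read. Of 11 tested, 4 fell and 0 rose (0 rose by limma, 1 was higher at an unadjusted p under 0.05), and the median was -0.46. The share of all genes called lower was 3.15%. Klf5 fell by 1.58 (SE 0.19, limma adjusted p = 0.00484) and passed in all 8 fits with an array left out. Cebpa and Cebpd, members of the family whose motif core is marked in the promoters above, fell by 0.84 (SE 0.20) and 0.80 (SE 0.18), and Myb, a factor of progenitors, by 0.64 (SE 0.13). These last 3 kept their call in 1, 2 and 2 of 8 fits with an array left out, with adjusted p up to 0.116, 0.108 and 0.0912. Cebpe, the factor most closely tied to secondary granule genes, differed by -1.78 (SE 0.61, limma adjusted p = 0.120) and is named here after its value was seen. Its probe stood out from background on 1 ChAT_positive and 3 ChAT_negative arrays. Spi1, which encodes PU.1, whose motif core is also marked above, had the opposite sign. It differed by 0.76 (SE 0.19, limma adjusted p = 0.0536) and was not called, although its groups did not overlap. Cebpb, a further member of the C/EBP family, differed by -0.26 (SE 0.18, limma adjusted p = 0.417). Spi1 and Cebpb are also named after their values were seen.

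Receptors for alarmins and granule proteins were read as well. Of 14 tested, 2 rose and 0 fell (0 fell by limma, 0 were lower at an unadjusted p under 0.05), and the median was 0.011. Limma called 2.81% of all genes higher and 3.15% lower. Ly96, the partner of the endotoxin receptor TLR4 at which calprotectin acts, rose by 0.83 (SE 0.18, limma adjusted p = 0.0312), and Cd36, a scavenger receptor, by 1.45 (SE 0.35, limma adjusted p = 0.0443). Each kept its call in 2 of 8 fits with an array left out, with adjusted p up to 0.0894 without ChAT_negative replicate 4 and 0.126 without ChAT_positive replicate 3.

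Among inhibitors of granule proteases, 3 of 8 tested genes fell and 0 rose (0 rose by limma, 1 was higher at an unadjusted p under 0.05), with a median of -0.86. Again, 3.15% of all genes were called lower. Timp2, an inhibitor of the metalloproteinases to which Mmp8 belongs, fell by 1.04 (SE 0.20, limma adjusted p = 0.0250). Cst7, a cystatin that NK cells express, fell by 0.77 (SE 0.16, limma adjusted p = 0.0298). Serpinb1b, an elastase inhibitor paralog well above background on 1 of the ChAT_positive arrays, fell by 1.40 (SE 0.27, limma adjusted p = 0.0240). Timp2 and Serpinb1b kept their call in 3 of 8 fits with an array left out and Cst7 in 2 of 8, with adjusted p up to 0.0781, 0.0681 and 0.0886.

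In the S100 family outside S100a8 and S100a9, limma called 0 of 8 tested genes, and the median log2 fold change was -0.20. At an unadjusted p under 0.05 there was 1 lower gene. Calls over all genes were 3.15% lower and 2.81% higher. S100a10 had a log2 fold change of -0.19 (95% interval -0.50 to 0.13) and S100a11 one of -0.21 (95% interval -0.57 to 0.15), both of them widely expressed. The r of their deviations with the mean deviation of the 9 genes had a median of -0.56 over these 8 genes and of -0.085 over 13014 genes.

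Markers of other cells were measured beside these genes, and their part in the differences was not tested. For the counts below, limma called 3.15% of all genes lower and 2.81% higher. Of 7 tested basophil and mast cell markers, 5 fell and 0 rose (0 rose by limma, 0 were higher at an unadjusted p under 0.05), and their summed signal, relative to the array's 75th percentile, was 0.746 to 3.43 in ChAT_positive and 8.06 to 41.0 in ChAT_negative pools. Their lowest array was also array 2 in both groups. Cd200r3, a basophil receptor, rose above background on no ChAT_positive array and was at least 15.2-fold lower there; it passed the filter through the ChAT_negative arrays alone, and without it 4 of 6 markers fell. The sum of 6 eosinophil markers was 1.56 to 2.20 against 2.72 to 5.60, with 0 called by limma, although 3 had an unadjusted p under 0.05 and were lower. That of 13 monocyte and macrophage markers was 12.7 to 15.4 against 14.7 to 19.8, with 0 called by limma and, at an unadjusted p under 0.05, 2 lower and 3 higher. That of 6 erythroid markers was 14.7 to 17.0 against 20.6 to 31.0, with 2 lower, and that of 6 B cell markers was 65.2 to 87.9 against 42.5 to 57.1, with 4 higher. The sum of 6 T cell markers was 10.6 to 22.5 against 11.1 to 18.7, with 0 called by limma and 0 at an unadjusted p under 0.05. The 13 NK cell markers summed to 166.4 to 245.4 in ChAT_positive and 248.6 to 298.3 in ChAT_negative pools, with 3 lower. The sums of basophil, eosinophil, erythroid, B cell and NK cell markers did not overlap between the groups. Nor did that of the other primary granule genes, which was 46.8 to 58.3 in ChAT_positive and 65.8 to 76.0 in ChAT_negative pools. The brightest gene in this last sum was Ctsd, with means of 4.85 in ChAT_positive and 5.31 in ChAT_negative pools. Groups overlapped for Ctsd itself, and it was not called (limma adjusted p = 0.126). A sum is carried by its brightest probes.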

How the data were processed

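Per the file headers, the deposited scanner files were made with Agilent Feature Extraction 11.5.1.1 and hold spot intensities on a linear scale; the processed intensity is background-subtracted within an array and not scaled between arrays. The deposited value table holds log2 values, and each column equalled log2 of that array's processed intensity less a constant at most 0.00655 from its 75th percentile (column medians -0.72 to -0.63). Per the file headers, the array was annotated on mm9, so names were taken by unversioned RefSeq accession from a GRCm38.p6 table (26762 of 55681 non-control probes), without gene positions.

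Control spots and outlier-flagged spots were left out (51 probe values with no unflagged spot stayed in), spots of a probe were averaged, and log2 values less each array's 75th percentile were formed. A probe had to be well above background on 4 or more of the 8 arrays (32086 passed), and the brightest stood for its gene. ChAT_positive minus ChAT_negative was tested two-sided by eBayes after lmFit (limma 3.58.1, R 4.3.3), with p-values adjusted by Benjamini-Hochberg across the 13607 genes and a threshold of 0.05, and the procedure was tested on simulated data. Calls were repeated with each array left out.

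The 10 genes and all lists were chosen with earlier results of these data known. Of 222 listed symbols, 211 were on the array. The genes named are the 10, the called members of each list up to 6 by adjusted p or the 2 brightest, and the 8 most alike; 1 named gene is not reported here. The number of arrays limits the precision.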

Additional observations from a re-analysis of the deposited data

Results flagged for a closer look

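Each group of 4 arrays was searched for a value far from the other 3, over the 10 genes and the list genes named by rule. Of 108 such groups, 15 held one, where chance gives about 1 in 20, and all 15 were arrays numbered 2. The groups share their arrays, so these are not 15 separate events.

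ChAT_negative 2 stood below the other ChAT_negative arrays for S100a8 (2.14, others from 3.63 to 3.77), Ngp (-0.62, others from 2.14 to 2.57), Camp (0.17, others from 2.55 to 2.98) and Ltf (-2.02, others from 1.29 to 1.65). It also stood below them for Ctsg (0.53), Lrg1 (-3.44), Padi4 (-2.02) and the basophil marker Fcer1a (-1.32), and above them for C5ar1 (-3.62) and Il5ra (1.21), a cytokine receptor chain of eosinophils. ChAT_positive 2 stood below the other ChAT_positive arrays for Ctsg (-2.25), Padi4 (-3.48), Cd36 (-1.66) and the basophil protease Prss34 (-5.34), and above them for Prf1 (4.87, others from 4.38 to 4.40). What set these 2 arrays apart was not tested.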

How the results depend on the processing

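All 9 tested genes kept a negative sign under every alternative run, with a lowest log2 fold change of -4.26 (Ltf without ChAT_negative replicate 2) and a highest of -0.73 (Lcn2 without ChAT_positive replicate 2). Of the 9 genes, 1 was called under quantile normalization, 1 with a filter at all 8 arrays (where 7 were tested), 0 with no filter on dim probes, 0 without both arrays numbered 3 and 4 without both arrays numbered 2 (the last alternatives were chosen after seeing the data). The 11 falls among other neutrophil genes became 7 under quantile normalization, 2 under median scaling, 4 with no filter and 1 without both arrays numbered 3; the 3 rises became 5 at an adjusted p under 0.10 and 1 without both arrays numbered 3. Over all genes, 428 lower and 382 higher became 119 and 212 under median scaling, 126 and 98 with no filter, 838 and 868 at an adjusted p under 0.10, and 35 and 21 without both arrays numbered 3. The higher calls became 577 with array weights and 193 without both arrays numbered 2. Median scaling moved the median log2 fold change of all genes to 0.24. With 1 array left out, the 9 genes gave 0 to 2 calls, the other neutrophil genes 3 to 11 falls, and all genes 116 to 429 lower and 94 to 305 higher.

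With the replicate number as a block, all 9 genes were called lower (adjusted p from 0.00252 for Retnlg to 0.0497 for S100a9), with 28 other neutrophil genes lower and 9 higher, and 1344 genes lower and 1002 higher over the array. The labels do not say that a number marks shared animals or a shared day. Deviations of same-numbered arrays correlated over genes at 0.54, 0.66, 0.52 and 0.032, and 6 of 8 arrays correlated best with their own number, a hint from the data and not the design, so the arrays were not treated as pairs. The cause of these shifts was not tested. Slide and scan could not be blocked, since each held 1 group.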
